A study of Mus musculus with 18 samples.

Results

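The genes described here encode the subunits, activators and dedicated assembly chaperones of the proteasome. They were chosen by name alone: each row of the count table was kept whose Ensembl identifier maps to a symbol of the Psma, Psmb, Psmc, Psmd, Psme, Psmf or Psmg series followed by a number. This gave 49 genes of 50600 rows, of which 50376 carried a symbol. By name they fall into 7 alpha subunits of the 20S core, 7 constitutive beta subunits, 3 immunoproteasome subunits (Psmb8, Psmb9 and Psmb10), 2 tissue-restricted core subunits (Psma8 and Psmb11), 6 ATPases and 14 non-ATPase genes of the 19S regulatory particle, 6 activators and inhibitors, and 4 core assembly chaperones. Psmd5, Psmd9 and Psmd10 are known as assembly chaperones of the regulatory particle and were kept with the Psmd genes by name.

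The study sequenced total RNA, depleted of ribosomal RNA, from sorted regulatory T cells (Tregs) of C57BL/6 mice that either carried or lacked the IL-2 receptor alpha chain CD25, the product of Il2ra. Thymic Tregs came from 5 WT mice with a Foxp3/RFP reporter and 5 CD25 KO mice, all 3-4 weeks of age. In the KO mice CD25 flox was excised by a Cre expressed together with YFP from the Foxp3 locus, and these mice alone had been given WT splenocytes by vein as newborns to cure their autoimmunity. Splenic Tregs came from 4 KO mice (CD25 flox, Foxp3eGFP-Cre-ERT2, R26Y) and 4 CD25 WT reporter controls, with tamoxifen begun at 7-10 weeks of age and cells taken 10-14 days later. The 2 genotypes of the thymus therefore differed in the Foxp3 reporter and the splenocyte transfer as well as in CD25. Tissue, mouse model, age, tamoxifen and the date carried by the column headers cannot be told apart, since each tissue had its own model and date. Because these are bulk samples, fewer cells of a type and less RNA per cell cannot be told apart either.

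The proteasome degrades proteins tagged with ubiquitin. Its barrel-shaped 20S core holds the catalytic sites on beta subunits inside rings closed by alpha subunits, and the 19S particle, with a ring of ATPases, binds, unfolds and feeds in the tagged proteins. In lymphocytes, and in other cells exposed to interferon, Psmb8, Psmb9 and Psmb10 replace the constitutive catalytic subunits Psmb5, Psmb6 and Psmb7, which alters the peptides produced for MHC class I. PA28 (Psme1 and Psme2) is a cap that can take the place of the 19S particle, and PA200 (Psme4) is another.

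The members lay on 16 chromosomes, and only 3 pairs had less than 100 kb between them. Psmb5 and Psmb11 were 3410 bases apart on chromosome 14, Psme1 and Psme2 were 5911 bases apart on the same chromosome, and Psmb9 and Psmb8 were 9956 bases apart on chromosome 17. RefSeq start sites on GRCm38.p6 matched 41 of the 49 members and gave 44 promoters, read over the 250 bases before each start. The sequences printed next are those of Psmb3 and Psmb5, the constitutive core genes with the lowest KO to WT ratios in the thymus, and of Psmb10 and Psme2, which stood higher in splenic than in thymic WT Tregs. They are given 5′ to 3′ on the gene's strand, limited to bases outside every annotated exon, and capitals mark the letters of a searched motif on either strand.
Psmb3, chr11:97703184-97703398, plus strand: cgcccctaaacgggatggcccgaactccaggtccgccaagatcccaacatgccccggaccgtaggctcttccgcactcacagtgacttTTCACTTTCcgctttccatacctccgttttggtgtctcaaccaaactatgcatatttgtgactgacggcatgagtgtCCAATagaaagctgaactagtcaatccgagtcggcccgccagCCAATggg
Psmb5, chr14:54618023-54618245, minus strand: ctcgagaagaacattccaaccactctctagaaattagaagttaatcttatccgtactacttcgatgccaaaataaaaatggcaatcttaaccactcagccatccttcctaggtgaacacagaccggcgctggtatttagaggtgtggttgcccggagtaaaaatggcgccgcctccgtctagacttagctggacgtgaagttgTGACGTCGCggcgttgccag
Psmb10, chr8:105938445-105938642, minus strand: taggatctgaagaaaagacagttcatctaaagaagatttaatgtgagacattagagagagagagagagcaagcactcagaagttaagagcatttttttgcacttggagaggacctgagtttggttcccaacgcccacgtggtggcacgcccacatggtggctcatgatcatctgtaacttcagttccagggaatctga
Psme2, chr14:55591114-55591351, minus strand: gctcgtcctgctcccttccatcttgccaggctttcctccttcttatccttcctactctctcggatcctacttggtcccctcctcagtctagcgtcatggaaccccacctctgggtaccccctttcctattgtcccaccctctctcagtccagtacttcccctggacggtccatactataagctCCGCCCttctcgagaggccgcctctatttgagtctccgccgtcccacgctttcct
Psmb3 held 1 match to the interferon-stimulated response element (ISRE) and 2 CCAAT boxes, Psmb5 held 1 antioxidant response element (ARE), Psme2 held 1 GC box, and the Psmb10 stretch held none of the motifs searched.

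The motifs were searched on both strands and may overlap one another. The letters of the ISRE, GAAANNGAA, stood in 3 of the 44 member promoters (6.82%) against 7.13% of all 32851 promoters. A form of the ISRE longer by 1 base stood in the same number of member promoters and in 2.98% of all promoters. The interferon-gamma site (GAS), TTCNNNGAA, stood in 4.55% of member promoters and 7.02% of all. The window of Psmb8, which lies wholly in annotated exons and is not printed, held the GAS match ttcccagaa between 97 and 89 bases before the start. The ARE, TGACNNNGC, stood in 11.4% of member promoters and 10.2% of all, CCAAT in 31.8% and 33.8%, and the GC box GGGCGG in 52.3% and 32.7%. A match of letters is a description of the window and shows no binding.

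Library totals ran from 17239774 to 23993674 counts in the thymus and from 25258341 to 32639570 in the spleen, so that 3 counts equalled at most 0.174 CPM (counts scaled to a common, normalised library size) in a thymic library and 0.119 in a splenic one. Il2ra had a median of 652 CPM in thymic WT samples (range 524-682) and 105 in thymic KO samples (95.9-280), against 534 (488-539) and 185 (168-208) in the spleen, and the ranges did not overlap in either tissue. Thymic KO samples 2 and 4 had the highest Il2ra levels of their group. The same 2 samples had the highest summed level of 10 cell cycle genes in their group, 1337 and 1115 CPM against 305.7-399.1 in the other 3 KO samples and 762.8-1540 in the WT samples, and edgeR and DESeq2 called none of the 10 in the thymus, with 2 at an unadjusted p under 0.05. Counts of members are therefore also given without these 2 samples, a choice made after their values were seen. In the spleen the cell cycle sum was 349.7-388.6 CPM in WT and 497.8-601.1 in KO samples, and 7 of its 10 genes rose. Summed levels of 6 double-positive thymocyte markers were 40.01-172 CPM in thymic WT samples, 45.64-98.23 in thymic KO samples and 8.317-11.15 in splenic samples, with the highest value in thymic WT sample 4. B cell markers summed to 10.18-23.92 CPM and myeloid markers to 7.837-29.66 CPM over all samples, and neither edgeR nor DESeq2 called any tested marker of these 3 cell types between genotypes in the thymus, where 1, the myeloid gene Csf1r, had an unadjusted p under 0.05. In the spleen the B cell gene Pax5 and the myeloid gene Lyz2 were called higher in KO Tregs (log2 fold changes 1.04 and 1.03). The other tested B cell and myeloid markers were not called: Cd79a (-0.45, edgeR adjusted p = 0.032), Cd79b (0.02), Csf1r (-0.24) and Cd68 (0.06). B cell markers summed to 20.66-22.38 CPM in splenic WT and 20.13-23.92 in splenic KO samples. Myeloid markers summed to 16.03-21.14 CPM in splenic WT and 21.54-28.08 in splenic KO samples. The cortical epithelial factor Foxn1 averaged 0.0171 CPM in thymic WT samples, and the 5 cortical epithelial markers summed to 98.38-150.5 CPM over all samples, with none called by either tool in either tissue and Ly75 alone at an unadjusted p under 0.05, in the spleen. Of 6 Treg markers, Foxp3 averaged 503 ± 69.6 CPM in thymic WT and 297 ± 26.5 in thymic KO samples (SD, n = 5 each), and 3 of the 6 were called lower in the thymus, against 2 lower and 3 higher in the spleen. The part of any of these cells, or of cycling, in the values given next was not tested.

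In thymic WT Tregs, nearly all of the proteasome was well expressed. Levels between genes are compared as CPM per kb of the longest coding transcript. The alpha subunits had a median of 50.6 CPM per kb and lay between 26.6 for Psma3 and 71.7 for Psma6. The constitutive beta subunits had a median of 53, from 28 for Psmb5 to 80.4 for Psmb3. These 14 genes, which assemble in equal numbers, thus differed by less than 3 in ratio from the lowest to the highest within either ring. The immunoproteasome genes lay in or above that range, with 42.1 CPM per kb for Psmb10, 60.1 as the median and 103 for Psmb8. The ATPases lay between 28.5 for Psmc6 and 48.6 for Psmc3, and the other 19S genes between 7.05 for Psmd9 and 55.5 for Psmd2. The highest level of any member was that of Psme1, at 168 CPM per kb, and the chaperones were the lowest of the broadly expressed classes at 6.58-17.2.

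The tissue-restricted core genes had few counts. Psma8, a testis form of an alpha subunit, had 0 to 6 counts per sample over all 18 samples. Psmb11, the beta subunit of cortical thymic epithelium, had 7, 3, 1, 4 and 11 counts in the thymic WT samples, 28, 14, 13, 6 and 4 in the thymic KO samples, 4, 1, 0 and 0 in the splenic WT samples and 1, 0, 5 and 4 in the splenic KO samples. The highest Psmb11 counts were in thymic KO samples, but the thymic groups overlapped. Both genes were below the filter on low counts within each tissue, which left 47 members tested per tissue, and Psmb11 alone passed it over all 18 samples, which left 48 tested there.

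In the thymus, CD25 KO Tregs had slightly less mRNA of most proteasome genes than WT Tregs. Of the 47 members tested, 41 had a log2 fold change below 0, with a median of -0.16, while the median of all 16986 genes tested was -0.0022 and 50.3% of them were below 0. Every alpha subunit (7 of 7, median -0.17), every constitutive beta subunit (7 of 7, median -0.19), all 4 chaperones (median -0.17) and all 3 immunoproteasome genes (median -0.06) lay below 0, but Psmb2, Psmb9, Psmb10, Psmg1 and Psmg4 lay above 0 once a trend with exonic GC content was removed per library. So did 5 of 6 ATPases, with a median of -0.21, and 12 of 14 other 19S genes, with a median of -0.15. The activators differed in sign among themselves, with 3 of 6 below 0 and a median of 0.02.

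Few of these genes passed the test one by one. With edgeR's quasi-likelihood test and a false discovery rate (FDR) under 0.01 over all genes, 3 members were lower in KO Tregs, Psmb5, Psmb3 and Psmd3, which is 6.38% of the members against 2.99% of all genes tested. No member was higher, where 3.17% of all genes were, 2 were higher at an unadjusted p under 0.05, and DESeq2 called 2 higher. At an FDR under 0.05, 24 members (51.1%) were lower, where 10.9% of all genes were, and 2 members (4.26%), Psme2b and Psme4, were higher, where 12.3% were. DESeq2 at an FDR under 0.01 called 12 lower (25.5%, against 7.64% of the genes it tested), the 3 already named with Psma4, Psma7, Psmb8, Psmd2, Psmd7, Psmd11, Psmd12, Psmd13 and Psme3, and it called Psme2b and Psme4 higher (4.26% against 9.3%). With all 18 samples in 1 fit, 19 of 48 members were lower (39.6%, against 8.48% of all genes). Without thymic KO samples 2 and 4, 7 members were lower (14.9%, against 7.07% of all genes): Psmb3, Psmb5, Psmd3, Psmc4, Psmd1, Psmd13 and Psme3. Leaving out 1 sample moved the count between 0 and 3, and it was 0 without WT sample 2, 3 or 5 or without KO sample 1 or 3, and 1 without WT sample 1 or KO sample 5. Since the thymic fold changes of all genes were correlated with exonic GC content (Spearman's rho -0.40 across genes), the fit was repeated with a GC trend removed per library. Then 36 of 47 members were still below 0, with a median of -0.13. Psmb2, Psmb9, Psmb10, Psmg1 and Psmg4 turned to log2 fold changes above 0 (0.01, 0.13, 0.11, 0.06 and 0.06), as did Psme1 (0.01) and Psme2 (0.03), and none of the 7 was called. Psmc6 and Psmd10 turned to values below 0 (-0.38 and -0.13). At an FDR under 0.05, 9 members were lower in place of 24 (19.1%, against 7.09% of all genes), and at an FDR under 0.01, 4 were called lower (8.51%, against 2.21% of all genes), Psma2, Psma3, Psmc2 and Psmd11, and Psme2b was called higher (2.13%, against 2.18%). None of the 3 genes called without that correction was among them.

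**Figure D1:**
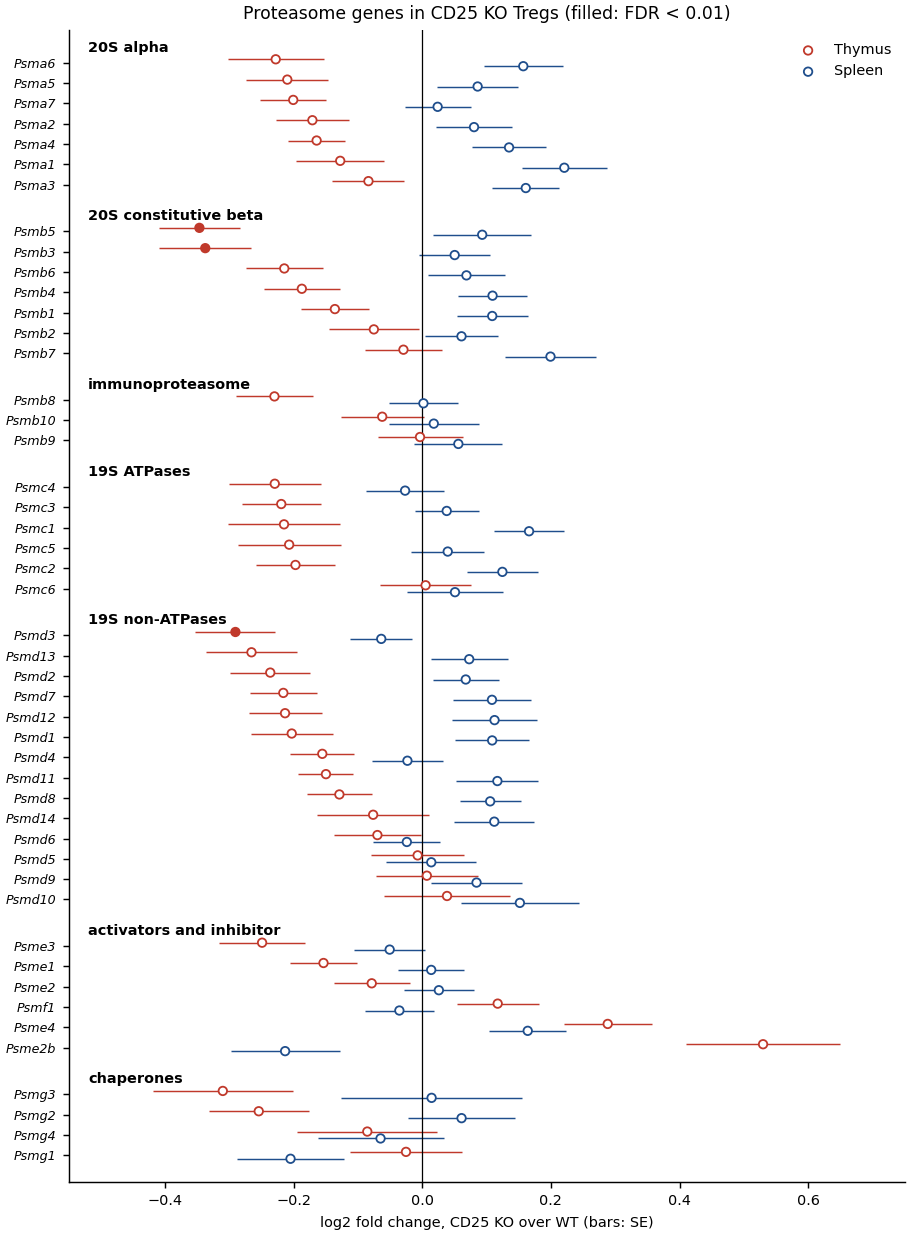
Log2 fold change of CD25 KO against WT Tregs (x axis) for the 47 members tested (y axis, grouped by class) in the thymus and in the spleen. Points are edgeR estimates, bars are standard errors, and filled points passed an FDR under 0.01. In the thymus 41 of 47 points lie below 0 and 3 are filled, and in the spleen 38 of 47 lie above 0 and none is filled.

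Psmb5 (ENSMUSG00000022193.6, GRCm38 chr14:54614119-54618022, minus strand), the constitutive subunit with chymotrypsin-like activity, had 24.7, 27.4, 24.1, 24.1 and 25.4 CPM in the 5 thymic WT samples and 19.85, 19.82, 18.25, 20.77 and 18.96 in the 5 KO samples. Each KO sample was below each WT sample. The level fell from 25.1 ± 1.36 to 19.5 ± 0.961 CPM (SD, n = 5 each), which is -0.35 ± 0.063 on the log2 scale (SE; edgeR adjusted p = 0.00439).

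Psmb3 (ENSMUSG00000069744.7, chr11:97703399-97713500, plus strand), a beta subunit without a catalytic site, had 54.9, 66.4, 67.0, 58.7 and 60.9 CPM in WT and 43.8, 48.2, 46.1, 52.7 and 49.95 CPM in KO thymic samples. The groups did not overlap, although KO sample 4 came close to WT sample 1. The mean fell from 61.6 ± 5.14 to 48.1 ± 3.44 CPM (SD, n = 5 each), with a log2 fold change of -0.34 ± 0.071 (SE; edgeR adjusted p = 0.00847).

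Psmd3 (ENSMUSG00000017221.14, chr11:98682554-98695979, plus strand), a scaffold subunit in the lid of the 19S particle, had 78.2, 90.5, 87.0, 77.0 and 84.6 CPM in WT and 69.9, 71.1, 64.2, 70.8 and 61.2 CPM in KO samples of the thymus. Again no KO sample reached the lowest WT sample. Psmd3 fell from 83.5 ± 5.75 to 67.4 ± 4.47 CPM (SD, n = 5 each), which is -0.29 ± 0.062 on the log2 scale (SE; edgeR adjusted p = 0.00881). With the GC trend removed the thymic log2 fold change was -0.18 for Psmb5 (edgeR adjusted p = 0.07). It was -0.27 for Psmb3 (adjusted p = 0.025) and -0.14 for Psmd3 (adjusted p = 0.0727). In the spleen Psmd3 had 79.5, 81.4, 84.5 and 79.4 CPM in WT and 78.6, 78.5, 78.7 and 74.7 CPM in KO samples. Its splenic log2 fold change was -0.06 (edgeR adjusted p = 0.408). The splenic minus the thymic log2 fold change of Psmd3 was 0.24 ± 0.081 (SE, edgeR adjusted p = 0.0444).

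Separation of the groups was more frequent among the members than among all genes. Every thymic KO sample lay below every WT sample for 16 of 47 members (34%, against 9.17% of all genes tested), and above every WT sample for 1 member, Psme2b (2.13%, against 7.2%). The 16 included 2 of the alpha subunits, Psma4 and Psma7, the beta subunits Psmb3, Psmb5 and Psmb8, and 7 of the non-ATPase genes of the 19S particle. Genes that share reads with near-identical copies have uncertain counts. For Psma4 the copy Gm6542 matched 96.81% over 783 bases and averaged 97.8 counts per sample, and for Psmd11 the transcript A730017L22Rik matched 97.94% over 1501 bases and averaged 332.3 counts. For Psmb5 the pseudogene Gm3375 matched 98.87% over 796 of 899 bases and averaged 0 counts. For Psmb3 the pseudogene Gm4950 matched 97.07% over 615 of 766 bases and averaged 1.2 counts.

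In the spleen, no proteasome gene was called between induced CD25 KO and WT Tregs. edgeR called 0 of 47 lower, where 3.55% of all genes were, and 0 higher, where 5.9% were, and DESeq2 called 0. At an unadjusted p under 0.05 there were 2 lower and 9 higher in edgeR. At an FDR under 0.05, 3 members were higher (6.38%, against 10.2% of all genes): the alpha subunits Psma1 (log2 fold change 0.22, edgeR adjusted p = 0.0295) and Psma3 (0.16, adjusted p = 0.0435), and the ATPase Psmc1 (0.17, adjusted p = 0.0495), all 3 named after their values were seen. The signs leaned the other way from the thymus, with 38 of 47 above 0 and a median of 0.07, while the median of all 17463 genes tested was -0.0065. All 7 alpha subunits (median 0.13) and all 7 constitutive beta subunits (median 0.09) lay above 0, as did 5 of 6 ATPases (median 0.05) and 11 of 14 other 19S genes (median 0.09), while the chaperones divided evenly, with 2 of 4 above 0. Every KO sample lay above every WT sample for 5 members (10.6%, against 11.2% of all genes), Psma1, Psma3, Psmc1, Psmd7 and Psmd8, and below every WT sample for 2 members (4.26%, against 9.19%), Psmd3 and Psmg1. These shares were close to or under those of all genes.

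The log2 fold change of KO against WT was then compared between the tissues as the splenic minus the thymic value, in 1 fit over all 18 samples. Of the 48 members tested, 43 had a difference above 0, with a median of 0.25, against -0.0065 for all 18686 genes, and all 34 constitutive core and 19S genes were above 0, with a median of 0.27. Among the 47 members tested in both tissues, 34 were below 0 in the thymus and above 0 in the spleen, 7 were below 0 in both, 4 were above 0 in both and 2 were above 0 in the thymus alone. In edgeR, 4 members had a higher value in the spleen at an FDR under 0.01 (8.33%, against 4.5% of all genes), Psmb5, Psmb3, Psma4 and Psmd7, and 1 had a lower value (2.08%, against 2.49%), Psme2b. At an FDR under 0.05, 24 were higher (50%, against 9.82%), and DESeq2 called 21 of 47 higher at 0.01 (44.7%, against 7.94%). Without thymic KO samples 2 and 4, 9 members were higher (18.8%, against 8.1%). With the GC trend removed, 3 were higher (6.25%, against 3.62%), Psma3, Psmc2 and Psmd11, and none of the 4 was among them. The 4 differences were then 0.32 for Psmb5, 0.33 for Psmb3, 0.31 for Psma4 and 0.26 for Psmd7 (edgeR adjusted p = 0.0471, 0.0305, 0.0107 and 0.0475). Leaving out 1 sample moved the number of higher members between 0 and 9. It was 0 without splenic WT sample 1 or 4 or splenic KO sample 2 or 4, 1 without thymic WT sample 3 or 5, thymic KO sample 1 or 3 or splenic WT sample 2, and 2 without thymic WT sample 2. It was 8 without thymic KO sample 5 and 9 without thymic KO sample 2. Psme2b was not called without splenic WT sample 2 or 3 or splenic KO sample 1 or 3.

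For Psmb5, the splenic samples had 21.1, 23.1, 24.6 and 21.95 CPM in WT and 22.03, 26.2, 23.1 and 25.2 CPM in KO. The splenic groups overlapped (22.7 ± 1.52 and 24.1 ± 1.92 CPM, SD, n = 4 each; log2 fold change 0.09, edgeR adjusted p = 0.448). The difference from the thymus was 0.45 ± 0.099 on the log2 scale (SE; edgeR adjusted p = 0.00394).

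Psmb3 in the spleen had 64.6, 66.2, 70.3 and 69.7 CPM in WT and 69.5, 75.2, 65.6 and 69.8 CPM in KO samples, also with overlap. Its splenic log2 fold change was 0.05 (edgeR adjusted p = 0.593), and its difference between tissues was 0.40 ± 0.093 (SE; edgeR adjusted p = 0.00611).

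Psma4 (ENSMUSG00000032301.13, chr9:54950790-54958030, plus strand), an alpha subunit, had 71.2, 71.9, 72.9, 67.6 and 72.3 CPM in thymic WT and 62.7, 63.1, 63.5, 63.6 and 61.1 CPM in thymic KO samples. Its splenic values were 70.4, 74.3, 81.5 and 75.5 CPM in WT and 76.9, 84.9, 81.9 and 87.0 in KO. The thymic groups did not overlap, the splenic groups did, and neither comparison passed on its own, with log2 fold changes of -0.16 ± 0.045 (edgeR adjusted p = 0.022) and 0.13 (adjusted p = 0.126). The difference, 0.31 ± 0.07 (SE), passed with an edgeR adjusted p of 0.00497.

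Psmd7 (ENSMUSG00000039067.5, chr8:107580381-107588464, minus strand), the lid subunit that pairs with the deubiquitinase Psmd14, had 43.4, 49.0, 43.8, 43.5 and 45.8 CPM in thymic WT and 37.1, 38.6, 39.3, 37.2 and 39.7 CPM in thymic KO samples. In the spleen it had 36.4, 42.0, 42.3 and 42.49 CPM in WT and 42.54, 45.4, 44.3 and 43.6 in KO. KO samples were thus all below WT in the thymus and all above WT in the spleen. The log2 fold changes were -0.22 ± 0.052 (edgeR adjusted p = 0.014) and 0.11 (adjusted p = 0.249), and the difference was 0.34 ± 0.08 (SE; edgeR adjusted p = 0.0071). Without thymic KO samples 2 and 4 that difference was 0.33 with an adjusted p of 0.0128. With 1 sample left out at a time, the difference stayed called for Psmd7 in 4 of 18 fits. It stayed called in 14 for Psmb5, 9 for Psma4 and 7 for Psmb3.

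**Figure D2:**
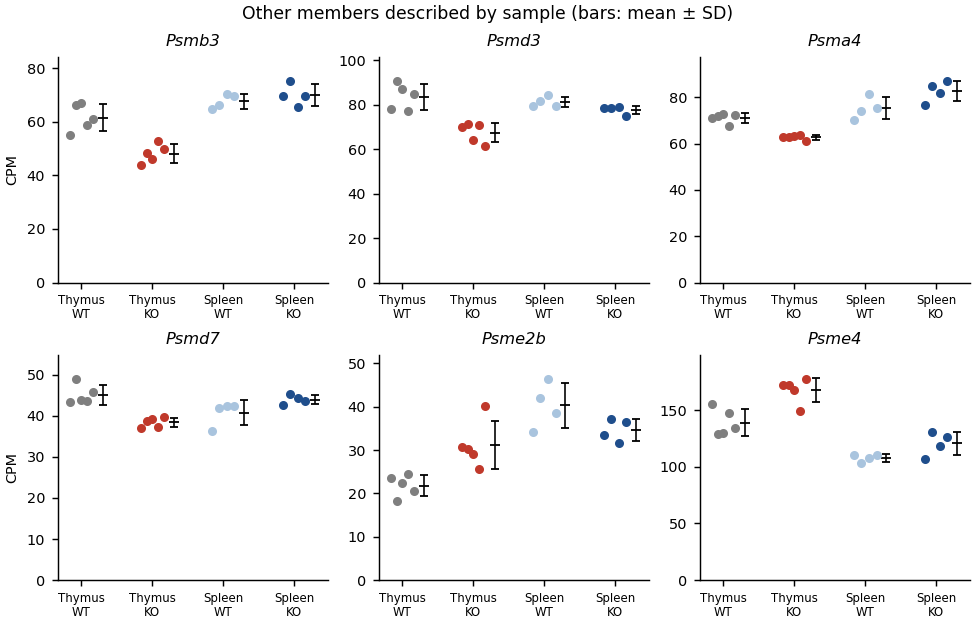
CPM (y axis, from 0) of Psmb3, Psmd3, Psma4, Psmd7, Psme2b and Psme4 in each sample of the 4 groups (x axis). Points are mice, and bars are the mean and SD. For Psmb3, Psmd3, Psma4 and Psmd7 all thymic KO points lie below the thymic WT points, while Psme2b lies above them.

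The lean of the members was also seen mouse by mouse. For each mouse, the median over the 47 members of the log2 difference from the WT mean of its tissue was taken. This median was -0.21, -0.13, -0.23, -0.16 and -0.12 in the 5 thymic KO mice, with 38 to 42 of 47 members below the WT mean in each, and -0.04, 0.07, 0.05, -0.11 and 0.02 in the 5 thymic WT mice. Every KO mouse was below every WT mouse, but WT mouse 4, at -0.11 with 43 members below the WT mean, came close to KO mice 2 and 5. The gap between the nearest mice of the 2 groups, WT mouse 4 at -0.11 and KO mouse 5 at -0.12, was thus smaller than the spread among the WT mice. That gap is not the difference between the group averages. In the spleen the median was -0.07, 0.01, 0.06 and -0.01 in WT mice and 0.04, 0.14, 0.01 and 0.09 in KO mice, and the groups overlapped. The members are not independent of each other, so these medians describe mice and carry no test.

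**Figure D3:**
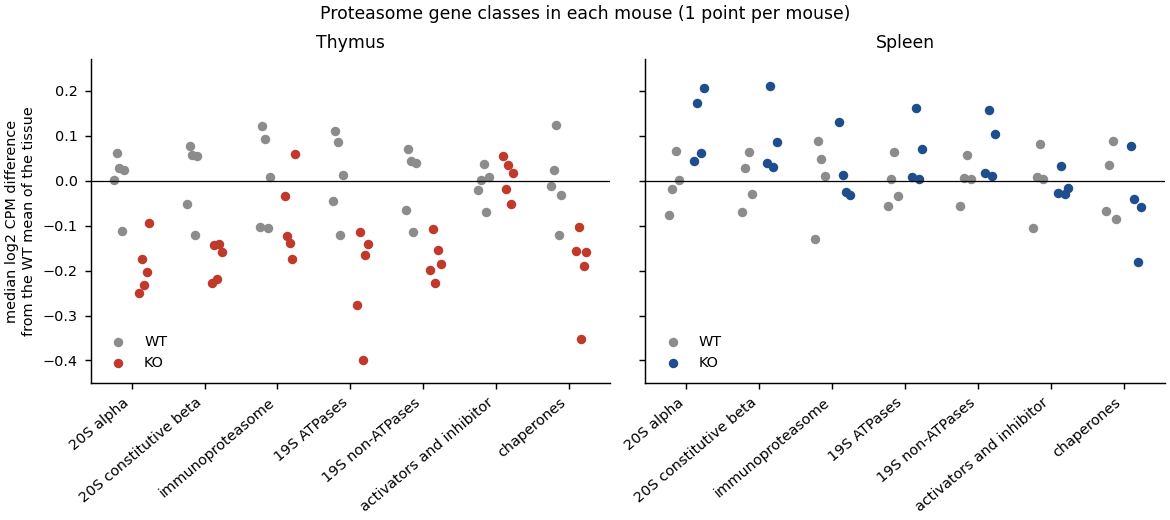
Median log2 difference from the tissue's WT mean (y axis) for each class of members (x axis), with 1 point per mouse, WT in grey and KO in colour, in a panel per tissue. In the thymus the KO points of the 20S and 19S classes lie mostly under the WT points, and in the spleen the 2 genotypes overlap in each class.

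In the thymus the median log2 fold change between genotypes was -0.06 for the immunoproteasome genes and -0.19 for the constitutive beta genes. The contrast between the classes was not tested, and their genes overlapped. Psmb8, at -0.23, was below the constitutive median, and the constitutive Psmb7, at -0.03, was above the immunoproteasome median. With the GC trend removed Psmb8 was at -0.13 and Psmb7 at -0.25 (edgeR adjusted p = 0.216 and 0.0565). Psmb8 (ENSMUSG00000024338.14, chr17:34197721-34201454, plus strand), the inducible counterpart of Psmb5, had 160.4, 180.5, 167.6, 154.4 and 173.3 CPM in thymic WT and 153.8, 136.3, 127.3, 137.7 and 149.9 in thymic KO samples. The thymic groups were separate, but KO sample 1 lay just under WT sample 4. The means were 167 ± 10.3 and 141 ± 10.8 CPM (SD, n = 5 each), and the log2 fold change of -0.23 ± 0.06 did not pass in edgeR (adjusted p = 0.0187). The splenic samples had 212.4, 244.7, 240.4 and 234.4 CPM in WT and 238.8, 240.2, 227.8 and 225.3 in KO, with equal means of 233 CPM and an edgeR adjusted p of 0.988.

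Psmb9 (ENSMUSG00000096727.2, chr17:34181987-34187764, minus strand), the counterpart of Psmb6, had 75.4, 90.1, 86.3, 75.6 and 78.7 CPM in thymic WT and 82.6, 74.4, 73.6, 83.8 and 86.1 CPM in thymic KO samples. In the spleen it had 109.6, 134.1, 115.9 and 112.6 CPM in WT and 134.9, 114.3, 124.0 and 117.5 in KO. The genotypes overlapped in both tissues (edgeR adjusted p = 0.975 in the thymus and 0.634 in the spleen). Psmb9 shares 212 exonic bases with Tap1 on the opposite strand, whose average count was 8719 per sample, and whether counting used the strand is not given in the sources used here.

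Psmb10 (ENSMUSG00000031897.9, chr8:105935735-105938444, minus strand), the counterpart of Psmb7, had 50.6, 59.8, 58.9, 51.1 and 55.4 CPM in thymic WT and 53.8, 50.6, 50.6, 48.8 and 57.4 CPM in thymic KO samples. Its splenic values were 75.2, 93.6, 96.4 and 88.8 CPM in WT and 96.4, 88.9, 86.6 and 86.2 in KO. Again the genotypes overlapped (edgeR adjusted p = 0.506 and 0.898), while all splenic samples were above all thymic ones.

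Of the constitutive counterparts, Psmb6 (ENSMUSG00000018286.6, chr11:70525367-70527858, plus strand), with caspase-like activity, had 43.8, 47.3, 46.0, 42.2 and 46.9 CPM in thymic WT and 38.6, 34.9, 38.8, 38.0 and 42.6 CPM in thymic KO samples. The groups overlapped only through KO sample 5 and WT sample 4, and the log2 fold change was -0.21 ± 0.06 (edgeR adjusted p = 0.0251). Its splenic values were 45.1, 46.4, 50.4 and 44.0 CPM in WT and 51.0, 50.7, 46.9 and 46.2 in KO.

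Psmb7 (ENSMUSG00000026750.6, chr2:38588036-38644087, minus strand), with trypsin-like activity, had 41.5, 40.5, 43.2, 38.1 and 44.4 CPM in thymic WT and 39.9, 42.3, 40.3, 41.5 and 37.1 in thymic KO samples. Unlike Psmb5, its thymic groups overlapped widely, with a log2 fold change of -0.03 (edgeR adjusted p = 0.754). That contrast was not kept with the GC trend removed, where Psmb7 was at -0.25 and Psmb5 at -0.18 (edgeR adjusted p = 0.0565 and 0.07). In the spleen it had 31.6, 30.9, 30.2 and 36.3 CPM in WT and 35.5, 38.8, 34.7 and 39.0 in KO, a log2 fold change of 0.20 ± 0.071 (adjusted p = 0.0657).

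**Figure D4:**
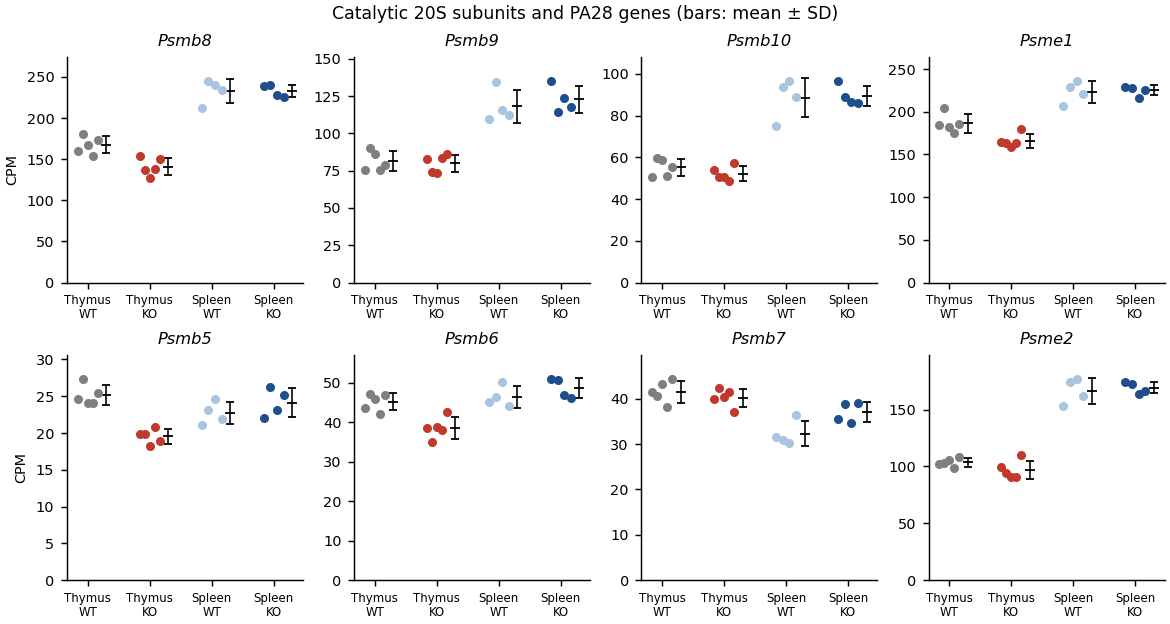
CPM (y axis, from 0) of the catalytic core genes Psmb5, Psmb6 and Psmb7, their immunoproteasome counterparts Psmb8, Psmb9 and Psmb10, and the PA28 genes Psme1 and Psme2, in each sample of the 4 groups (x axis). Points are mice, and bars are the mean and SD. Psmb8, Psmb9, Psmb10 and Psme2 stand higher in the spleen than in the thymus, and Psmb5 is lower in thymic KO than in thymic WT samples.

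The balance of inducible to constitutive subunits was taken within each sample as a log2 ratio and tested by a two-sided exact permutation test, with the 6 tests adjusted together. In the thymus the ratio of Psmb9 to Psmb6 was 0.84 ± 0.078 in WT and 1.05 ± 0.086 in KO samples (log2, SD, n = 5 each), a difference of 0.21 with an exact p of 0.0159 that did not pass the correction (adjusted p = 0.0952). The ratio of Psmb8 to Psmb5 was 2.73 ± 0.048 and 2.84 ± 0.11 (exact p = 0.0556, adjusted p = 0.167), and that of Psmb10 to Psmb7 differed by -0.03 (exact p = 0.714). In the spleen the differences were -0.09 for Psmb8 to Psmb5, -0.01 for Psmb9 to Psmb6 and -0.18 for Psmb10 to Psmb7 (exact p = 0.314, 0.914 and 0.229). The smallest p these designs allow is 0.00794 in the thymus and 0.0286 in the spleen. Per kb of the longest coding transcript, the level of Psmb8 was 3.67 times that of Psmb5 in thymic and 5.68 times in splenic WT Tregs, Psmb9 was at 1.06 and 1.5 times Psmb6, and Psmb10 was at 1.18 and 2.44 times Psmb7. These ratios depend on the transcript length used: per kb of all exonic sequence they were 1.77 and 2.73, 0.917 and 1.3, and 2.67 and 5.54. Those with Psmb5 may also depend on how reads shared with its copy Gm3375 were counted, which is not given in the sources used here.

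Among the activators, Psme1 (ENSMUSG00000022216.16, chr14:55578123-55581529, plus strand), the alpha subunit of PA28, had 184.2, 204.7, 182.5, 175.5 and 186.0 CPM in thymic WT and 164.2, 163.2, 158.8, 163.2 and 179.5 CPM in thymic KO samples. KO sample 5 alone lay within the WT range, and the log2 fold change of -0.15 ± 0.051 did not pass (edgeR adjusted p = 0.0475). The splenic values overlapped, at 206.7, 228.8, 235.8 and 221.4 CPM in WT and 229.4, 228.3, 216.6 and 226.0 in KO.

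Psme2 (ENSMUSG00000079197.10, chr14:55587441-55591113, minus strand), the beta subunit of PA28, had 102.0, 103.3, 106.1, 98.7 and 108.5 CPM in thymic WT and 99.7, 93.8, 91.2, 90.9 and 110.1 CPM in thymic KO samples, with overlap (edgeR adjusted p = 0.355). Its splenic values were 153.1, 174.3, 177.1 and 161.7 CPM in WT and 174.3, 172.3, 164.1 and 166.7 in KO.

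Psme2b (ENSMUSG00000078153.3, chr11:48945354-48946190, minus strand) is a copy of Psme2 on another chromosome, and the transcripts are 99.37% identical over 794 bases, so reads could be split between them. It had 23.6, 18.3, 22.3, 24.4 and 20.6 CPM in thymic WT and 30.8, 30.3, 29.0, 25.6 and 40.2 CPM in thymic KO samples, and 34.2, 42.0, 46.4 and 38.7 CPM in splenic WT and 33.4, 37.2, 31.6 and 36.4 CPM in splenic KO samples. Thymic KO samples were all above thymic WT, with sample 5 the highest, while the splenic groups overlapped. The log2 fold change was 0.53 ± 0.12 in the thymus (edgeR adjusted p = 0.0106) and -0.21 in the spleen (adjusted p = 0.1), and the difference of -0.73 ± 0.16 passed (SE; edgeR adjusted p = 0.00421). When the counts of the pair were summed, the log2 fold change was 0.05 ± 0.066 for thymic and -0.02 for splenic Tregs, and the difference was -0.05 (edgeR adjusted p = 0.631, 0.869 and 0.738). Psme2b took 15-19.8% of the summed CPM in thymic WT, 22-26.8% in thymic KO, 18.2-20.8% in splenic WT and 16.1-17.9% in splenic KO samples.

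Psme4, which encodes PA200, was looked at after its values were seen, as a member that stood higher in thymic KO Tregs. It had 154.9, 128.8, 129.3, 147.2 and 134.0 CPM in thymic WT and 171.8, 172.1, 167.9, 149.5 and 177.5 CPM in thymic KO samples. Only KO sample 4 fell within the WT range. The log2 fold change was 0.29 ± 0.068 in the thymus (edgeR adjusted p = 0.0129) and 0.16 in the spleen (adjusted p = 0.0761), so that Psme4 was 1 of the 4 members above 0 in both tissues.

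Between WT Tregs of the 2 tissues, the inducible members stood out as higher in the spleen. All 3 immunoproteasome genes stood higher in the spleen, by 0.68 ± 0.073 for Psmb10, 0.54 ± 0.073 for Psmb9 and 0.48 ± 0.06 for Psmb8 on the log2 scale (SE; edgeR adjusted p = 1.43e-07, 3.58e-06 and 1.44e-06). So did both PA28 genes, by 0.68 ± 0.058 for Psme2 and 0.26 ± 0.052 for Psme1 (edgeR adjusted p = 5.42e-09 and 0.000334), with Psme2b at 0.88 ± 0.11 (adjusted p = 1.72e-06) and the summed pair at 0.72 ± 0.065 (adjusted p = 1.19e-08). The inhibitor Psmf1 was higher by 0.41. These were the 7 members called higher (14.6%, against 21% of all genes tested), and 6 were called lower (12.5%, against 19.5%): Psmb7 at -0.36, Psme4 at -0.36, the chaperone Psmg2 at -0.31, Psma5 at -0.27, Psmd12 at -0.25 and Psmd8 at -0.23. The shares called were thus below those of all genes in both directions, and the alpha subunits (median -0.08), constitutive beta subunits (median 0.04) and non-ATPase 19S genes (median -0.10) lay near 0. All 13 calls were kept when the GC trend was removed.

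**Figure D5:**
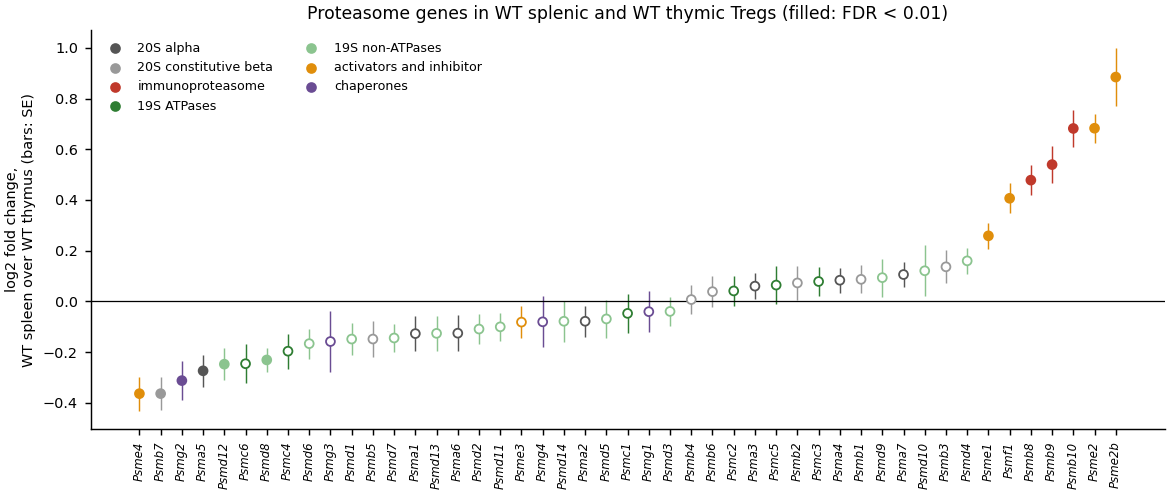
Log2 fold change of splenic against thymic WT Tregs (y axis) for the members tested (x axis, sorted by fold change and coloured by class). Psmb11, which had at most 5 counts in any splenic sample, is left out. Points are edgeR estimates, bars are standard errors, and filled points passed an FDR under 0.01. The 3 immunoproteasome genes lie between 0.48 and 0.68, above all constitutive core genes.

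Genes that work with the proteasome but are not subunits were counted from a list of 24, which holds the maturation factor Pomp, ubiquitin receptors and shuttles, ubiquitin genes and the transcription factors Nfe2l1 and Nfe2l2. In the thymus 2 of the 24 fell by edgeR, where 2.99% of all genes did, and 5 fell by DESeq2, where 7.64% did, and the median was -0.14: Nfe2l1, which drives proteasome gene transcription when the proteasome is impaired, by a log2 fold change of -0.29 (edgeR adjusted p = 0.0091), and the shuttle factor Ubqln1, at -0.27 (adjusted p = 0.0064). In the spleen 1 fell, where 3.55% of all genes did, Ubqln4, at -0.25 (edgeR adjusted p = 0.0052), and the median was 0.07. The difference between tissues was called higher for 4 of the 24, where 4.5% of all genes were, Ubqln1 (0.40), Pomp (0.34), Nfe2l1 (0.34) and Vcp (0.34), the ATPase that extracts ubiquitinated proteins. Of 8 genes of antigen processing, the peptide transporter gene Tap2 fell in the thymus, where 2.99% of all genes did (log2 fold change -0.26, edgeR adjusted p = 0.0045), while the interferon-pathway factor Irf1 rose, where 3.17% did (0.34, adjusted p = 0.0081). The thymic calls of both lists were made without removing the GC trend, and corrected values are not given here. Exonic GC content was 54.4% for Nfe2l1, 48% for Ubqln1, 56.9% for Tap2 and 52.8% for Irf1, with a median of 49% over all genes. In the spleen edgeR called none of the 8, 3 had an unadjusted p under 0.05, and DESeq2 called 2, among them B2m (adjusted p = 0.0069). Between WT tissues 6 of the 8 were higher in the spleen, where 21% of all genes were: Irf1 (0.74), B2m (0.62), Tap2 (0.49), Nlrc5 (0.47), Tap1 (0.34) and Erap1 (0.22).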

How the data were processed

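RNA from sorted thymic (5 WT, 5 KO) and splenic (4 WT, 4 KO) Tregs was sequenced as 75 bp pairs. The authors deposited raw counts per gene; they aligned reads to GRCm38 with STAR (2.5.0b) and counted GENCODE M13 genes with featureCounts (1.5.0), per the submitters' processing notes. Strand and multi-mapping settings are not given in the sources used here. Groups come from the labels, each sample being 1 mouse. Symbols were taken from GENCODE M21. The members and all lists were chosen with earlier results of these data known.

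Genes passing filterByExpr were fitted with edgeR 4.0.16 (R 4.3.3; TMM, quasi-likelihood) within each tissue, or over all 18 samples for the difference between tissues and for WT spleen against WT thymus, at a Benjamini-Hochberg FDR under 0.01 over all genes. The study's methods name DESeq2 at that FDR; DESeq2 1.42.0 was run as an alternative. CPM used TMM-scaled totals, and log2 ratios a prior count of 2. Values in every sample were given for the catalytic and PA28 genes and for members called in a tissue or in the difference. Alternatives were other scaling, filters and thresholds, a GC trend removed (exonic GC known for 99.6% of identifiers), 1 fit over all samples, a replicate block and leaving out each sample. The fits were tested on simulated data. A few genes of the lists are not reported here by name. Promoters were RefSeq's on GRCm38.p6. Figures used matplotlib 3.10.9. SDs and SEs cover the spread between mice, limits of 3 counts cover counting error only, and library totals are given with the results.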

Additional observations from a re-analysis of the deposited data

Results flagged for a closer look

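In 3 of 64 series of values, each the samples of 1 group for 1 of 13 named members or 3 subunit ratios, 1 sample stood far from the others by Dixon's test, where chance gives about 1 in 20. Psmd3 was 74.7 CPM in splenic KO sample 4 and 78.5-78.74 in the other KO samples. Psmd7 was 36.43 CPM in splenic WT sample 1 and 41.98-42.49 in the others. Psme1 was 179.5 CPM in thymic KO sample 5 and 158.8-164.2 in the others.

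For 5 members the KO to WT log2 fold change differed between the tissues at an edgeR FDR under 0.01. The splenic minus the thymic log2 fold change was 0.45 for Psmb5, 0.40 for Psmb3, 0.34 for Psmd7, 0.31 for Psma4 and -0.73 for Psme2b. Mouse model, age, tamoxifen and the date in the column headers differ along with the tissue and cannot be told apart from it, and for Psme2b the difference was -0.05 when its counts were summed with those of Psme2. In the thymus the genotypes also differed in the Foxp3 reporter and the splenocyte transfer. With the GC trend removed, Psme2b alone of the 5 was called at an FDR under 0.01.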

How the results depend on the processing

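The median log2 fold change of the members kept its sign in all 84 refits. It was -0.18 to -0.13 in the thymus, 0.04 to 0.10 in the spleen and 0.17 to 0.28 for the difference between tissues. Between WT tissues it was -0.13 to -0.04 with 1 sample left out and -0.03 with the GC trend removed. Within a tissue the median moved by less than 1 SD of the WT mice. Across tissues it moved by less than the root of the summed squared SDs of the WT mice of both tissues, a wider limit. Counts of members called depended on the settings. In the thymus 3 were lower and 0 higher, and these became 24 and 2 at an FDR under 0.05, 12 and 2 with DESeq2, 19 and 2 with all 18 samples in 1 fit, and 7 and 1 without thymic KO samples 2 and 4, an alternative chosen after seeing the data. The number higher was 2 with upper-quartile factors and 1 with no filter, with at least 10 counts in every sample, or with the GC trend removed. With the GC trend removed and an FDR under 0.05, also chosen after seeing the data, 9 were lower and 2 higher. In the spleen 3 were higher at an FDR under 0.05. For the difference, 4 higher became 24 at an FDR under 0.05, 21 with DESeq2, 9 without thymic KO samples 2 and 4, 7 with at least 10 counts in every sample, and 1 with upper-quartile factors or no filter. Between WT tissues, 6 lower became 11 at an FDR under 0.05. The cause of these changes was not tested, beyond the wider threshold and the samples left out.

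Leaving out each sample gave 0 to 3 lower and 0 to 2 higher in the thymus (1 higher without WT sample 1 and 2 without KO sample 4), and 0 to 9 higher and 0 to 1 lower for the difference. The KO minus WT difference in the log2 ratio of Psmb9 to Psmb6 in the thymus ranged from 0.19 to 0.25, with an adjusted p of 0.0476 at its lowest (exact permutation test). The sign of that difference turned for Psmb10 to Psmb7 in the thymus (-0.0947 to 0.0067) and for Psmb9 to Psmb6 in the spleen (-0.0567 to 0.0519), neither of which was called. No single named gene changed sign where it was called.

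Thymic samples share replicate numbers, but the numbers do not pair them: deviations of same-numbered samples correlated at 0.144, 0.034, -0.067, -0.238 and -0.048. With the replicate number as a block, 0 members were lower in the thymus. Summing Psme2 and Psme2b was also chosen after seeing the data. With 5 or 4 mice a group and differences of about 0.2 on the log2 scale, single members lie close to the threshold.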
